A study of Macaca mulatta with 4 samples.

Results

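Chromosome 10 of the rhesus macaque (Macaca mulatta), the counterpart of human chromosomes 20 and 22, held 13352 of the 328084 DNase I hotspots (4.07%) listed for 4 libraries of morulae. Its members were all hotspots placed on this chromosome in any of the lists. Merging those that overlapped or touched gave 8503 regions, of 222970 in the genome (3.81%). The libraries were 2 of androgenetic (AG) embryos, whose nuclear genome comes from sperm, and 2 of gynogenetic (GG) embryos, whose nuclear genome comes from the oocyte, all taken as morulae. All embryos came from the same suppliers per the labels, cells were digested for 5 min at 37 °C with DNase I at 40 U/ml, and the labels give no further genotype, strain, age or number of embryos. The lists hold positions and the authors' score, with no read counts, so sequencing depth is unknown and could not be set beside any difference. The labels do not say that replicates are separate cultures or animals, so each p-value reflects only how far these samples differ, and that spread may be technical. Chromosome 10 was selected on its larger share of covered length in AG than in GG embryos, so that difference is described here and not tested.

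DNase I cuts DNA where nucleosomes are displaced or loosened, as at active promoters and enhancers, and a hotspot is a stretch with more cuts than its surroundings. In the morula the embryo's own genome is already transcribed, while most imprinted genes keep a mark from the parent of origin. An AG or GG embryo has every copy of a chromosome from the same kind of parent, so a site used only on the paternal or maternal copy can differ between them. Human chromosome 20 carries NNAT, a membrane protein gene of the developing brain, and L3MBTL1, a gene for a chromatin-compacting protein. Both are expressed from the paternal copy in human, and a RefSeq gene table of assembly T2T-MMU8v2.0 lists both on macaque chromosome 10. Positions below are those of rheMac8, counted from 1, and no gene was placed on them, as an annotation of that build was not used.

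Chromosome 10 was covered to almost the same length in AG and GG embryos, although GG hotspots covered more of the other autosomes combined. It held 2984 and 3819 hotspots in AG replicates 1 and 2, against 3247 and 3302 in GG replicates 1 and 2. They covered 3.23 and 3.99 Mb in the AG libraries and 3.58 and 3.73 Mb in the GG libraries, so AG replicate 1 was the lowest and AG replicate 2 the highest, and the groups overlapped. The means were 3.61 ± 0.540 Mb in AG and 3.66 ± 0.105 Mb in GG (SD, n = 2 libraries each), or 0.987 times as much in AG. On the other autosomes the lists covered 64.6 and 80.3 Mb in AG and 98.5 and 89.4 Mb in GG, 0.771 times as much in AG. As a share of its own list, chromosome 10 took 4.76 and 4.73% in AG and 3.51 and 4.01% in GG, and the groups did not overlap. AG embryos thus had the larger share by 0.989 percentage points, and by 0.741 to 1.24 with any 1 library left out.

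**Figure D1:**
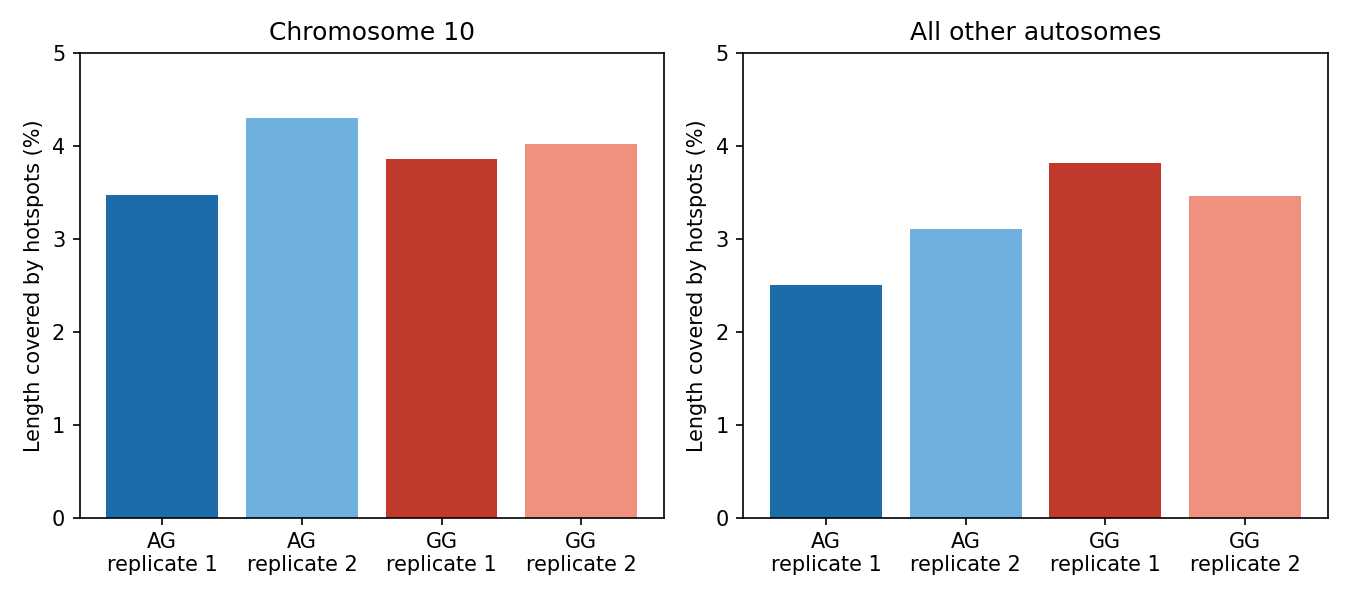
Length covered by hotspots as a percentage of the span up to the last hotspot, for chromosome 10 (left) and all other autosomes (right), 1 bar per library. On chromosome 10 the AG bars (3.48 and 4.30%) lie on either side of the GG bars (3.86 and 4.02%), while on the other autosomes both AG bars (2.50 and 3.11%) lie below both GG bars (3.82 and 3.46%).

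Hotspots were denser on chromosome 10 than on the other autosomes pooled in every library, but barely so in GG replicate 1. With the end of its last hotspot, 92.8 Mb, taken as its length, it had 32.1 and 41.1 hotspots per Mb in AG and 35.0 and 35.6 in GG, against 23.9 and 31.5 in AG and 34.8 and 31.5 in GG on the other autosomes. The excess of chromosome 10 over the rest was therefore wide in both AG libraries and very small in GG replicate 1. By the mean over libraries, 36.0 per Mb, it ranked 3 of 20 autosomes, and by regions called in all 4 libraries per Mb it also ranked 3. That mean includes the AG values on which the chromosome was chosen. In GG replicate 1 alone, chromosomes 1, 3, 4, 8, 9, 13, 16 and 19 had more hotspots per Mb. The direction of AG against GG in hotspots per Mb rested on AG replicate 2: the difference was 1.37 per Mb with all libraries and -3.13 per Mb without it.

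Hotspots of chromosome 10 scored slightly higher than hotspots elsewhere in the same list, and were slightly wider, mainly in AG. Median widths were 932 and 934 bp in AG and 905 and 924 bp in GG, against 903 and 888 bp in AG and 904 and 919 bp in GG on the other autosomes. The excess was 29 and 46 bp in AG and 1 and 5 bp in GG, on average 20.3 ± 21.2 bp (SD, n = 4 libraries), with all 4 libraries positive (two-sided exact permutation p = 0.125, the smallest that 4 libraries can give). Width enters the AG share of covered length on which the chromosome was chosen, so nothing is read from this test. Libraries of the same chromosome also do not measure how chromosomes vary. Wide hotspots made up a larger share in both GG libraries than in both AG libraries, on chromosome 10 and elsewhere. Those over 2 kb made up 9.58 and 8.20% of chromosome 10 hotspots in AG and 11.9 and 12.2% in GG, and other autosomes had 8.89 and 6.62% in AG and 11.1 and 10.6% in GG. The widest single hotspot measured 6795 and 6026 bp in AG and 8544 and 9677 bp in GG. The mean percentile of the score within a list was 52.5 and 52.1 in AG and 53.1 and 52.7 in GG, above the other autosomes by 2.71 ± 0.441 points on average in all 4 libraries (two-sided exact permutation p = 0.125).

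Hotspots of chromosome 10 were also found again more often in the other library of the same group than hotspots of the other autosomes pooled. The share that overlapped one by at least 1 bp was 38.7 and 30.3% in AG and 46.2 and 45.4% in GG, against 34.3 and 25.9% in AG and 37.7 and 41.9% in GG on the other autosomes. The excess averaged 5.17 ± 2.26 percentage points (SD, n = 4 libraries), positive in all 4 and largest in GG replicate 1 at 8.50 (two-sided exact permutation p = 0.125). The score separated hotspots that were found again from those that were not. In the top score decile of a list, 86.0 and 77.4% were found again in AG and 92.3 and 91.8% in GG, while in the bottom decile 13.2 and 11.0% were in AG and 22.2 and 17.7% in GG. The other autosomes showed the same pattern. Their top decile had 81.3 and 74.6% in AG and 88.1 and 89.9% in GG, and their bottom decile 12.7 and 9.17% in AG and 13.7 and 18.0% in GG. Hotspots of chromosome 10 were also denser and scored higher, and whether the excess went beyond that was not tested.

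Coverage along chromosome 10 alternated between dense blocks and a sparse middle. Of 10 consecutive stretches of 10 Mb (the last cut short by the chromosome's end), the one from 80 to 90 Mb held most, 15.0 and 14.3% of the chromosome's covered length in AG and 15.1 and 15.4% in GG. The stretch from 40 to 50 Mb held least of the full-length ones, 4.30 and 4.49% in AG and 5.02 and 4.46% in GG. That sparse stretch had 550 merged regions, of which 80.7% were called in only 1 library, against 67.2% from 30 to 40 Mb. The profile was thus much alike in all libraries: across 93 windows of 1 Mb, scaled log2 covered length correlated at 0.942 within AG, 0.957 within GG and 0.898 to 0.910 between AG and GG libraries. Windows of 1 chromosome share its dense and sparse blocks, so these values describe the profiles and carry no test.

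The densest windows were spread over several blocks. The window from 84000001 to 85000000 had 63.7 and 82.7 kb covered in AG and 92.4 and 94.5 kb in GG, a mean of 83.3 kb that ranked 83 of the 2682 windows of the genome with at least 2000 bp covered on average. Next were the windows starting at 72000001, 30000001, 83000001 and 28000001, with means of 77.9, 75.8, 75.8 and 74.9 kb. The sparsest was 57000001 to 58000000, with 4.81 and 12.5 kb in AG and 1.94 and 2.79 kb in GG, followed by those starting at 9000001, 55000001, 76000001 and 45000001 with means of 5.97, 6.09, 6.63 and 7.53 kb. The longest stretch with no hotspot in any list reached into the sparsest window, from 56881099 to 57178189 (297 kb). Then came 9405357 to 9638282 (233 kb), 8905380 to 9135242 (230 kb), 69001204 to 69176044 (175 kb) and 45400775 to 45554358 (154 kb). Such gaps were rare: 35 of 8502 gaps between neighbouring regions exceeded 100 kb, and the median gap was 4.71 kb.

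The outermost window at each end of the chromosome was well covered, but those just before the last one were sparse. The windows starting at 89000001, 90000001 and 91000001 had means of 13.2, 12.6 and 20.3 kb, against a median of 39.6 kb over the chromosome's windows. The first window had 48.8 and 64.3 kb in AG and 50.5 and 57.2 kb in GG, and the last one, which ends with the final hotspot at 92844023, had 61.4 and 80.4 kb in AG and 61.5 and 63.3 kb in GG.

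**Figure D2:**
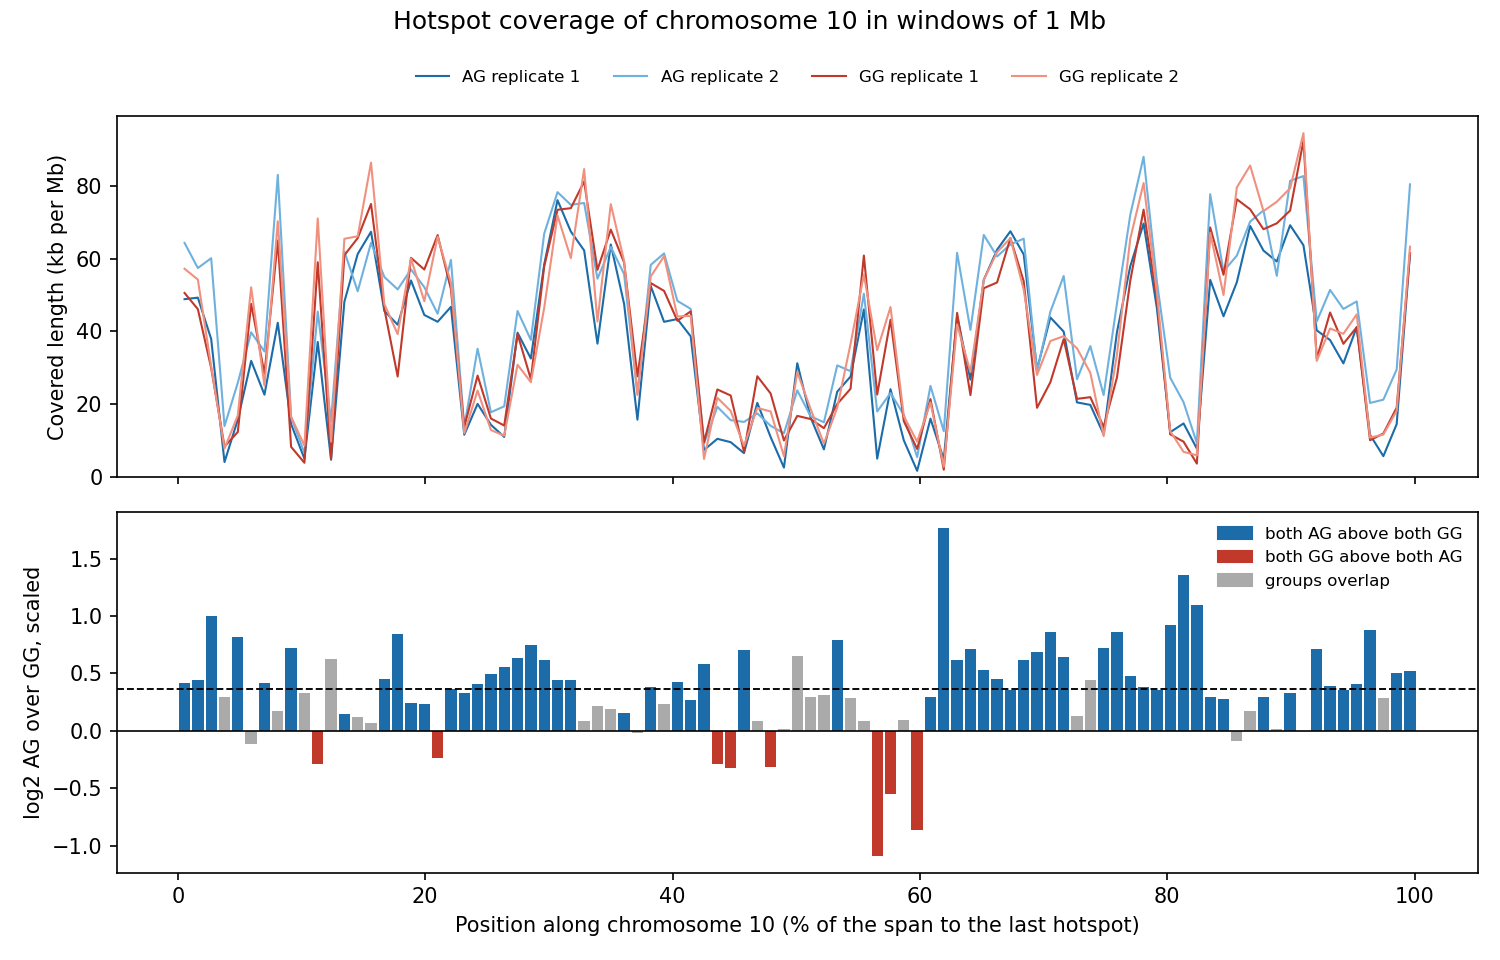
Covered length per 1 Mb window (top, kb, 1 line per library) and the scaled log2 ratio of AG over GG (bottom, 1 bar per window), against position as a percentage of the span up to the last hotspot. Bars lie above 0 in 81 of 93 windows, with the median of 0.37 as a dashed line, and the deepest bars below 0 stand a few windows from the tallest one, near the middle.

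Scaled to each library, AG exceeded GG in most windows of chromosome 10. This was not particular to it: the median difference was also above 0 on several other autosomes. The largest medians there were 0.56 on chromosome 19, 0.53 on chromosome 20 and 0.24 on chromosome 16. The scaled value is log2 of covered length plus 1000 bp over the library's mean of this, so it gives relative coverage, and the added 1000 bp makes differences of sparse windows smaller. The AG minus GG difference was positive in 81 of 93 windows, with a median of 0.37 and quartiles of 0.17 and 0.62, against a median of -0.04 over all 2682 windows. Both AG libraries lay above both GG libraries in 58 of the 93 windows (62.4%), where 24.1% of all windows did, and both GG above both AG in 8 (8.60%), where 28.9% did. The trait was stronger on 2 other autosomes: both AG libraries lay above both GG libraries in 94.4% of the windows of chromosome 19 and in 76.0% of those of chromosome 20. On chromosomes 19 and 20 it thus exceeded chromosome 10, while chromosome 16 had 44.9%. The AG over GG ratios of the share of covered length were 1.46 on chromosome 19 and 1.43 on chromosome 20, against 1.26 on chromosome 10 and 1.19 on chromosome 16. In the limma fit of this contrast, 0 of the 93 windows passed a Benjamini-Hochberg adjusted p of 0.05 (0% of all windows), and an unadjusted p under 0.05 was found for 19 higher in AG (6.67% of all windows) and 0 higher in GG (11.3%). Since the chromosome was chosen on this contrast, these counts are a description and nothing is read from them.

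A second fit asked which parts of chromosome 10 departed from its own mean, which its share of the genome does not fix. After each library was centred within each chromosome, 0 of 93 windows passed an adjusted p of 0.05 by limma (0.597% of all windows did), the smallest being 0.0892 for the window from 57000001. Unadjusted p-values under 0.05 were found for 4 windows higher in AG (9.32% of all windows) and 7 higher in GG (10.2%). Groups did not overlap in 19 windows with AG above (20.4%, against 28.3% of all windows) and in 18 with GG above (19.4%, against 22.5%), so both shares were below the background. The longest centred run with GG above was 5 windows, from 51000001 to 56000000, with 86.7 and 114 kb covered in AG and 149.5 and 163 kb in GG in all. After 1 window in between came the longest centred run with AG above, 4 windows from 57000001 to 61000000, with 130 and 181 kb in AG and 121 and 128 kb in GG. Centred calls by limma numbered 2 without AG replicate 2 (3.02% of all windows), both higher in GG, and 1 without GG replicate 1 (2.05%), higher in GG. Without GG replicate 2 there was 1 (2.42%), higher in AG, and none of these counts exceeded the background share.

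The windows ranked first toward AG by the uncentred fit included some of the sparsest, and for each the centred difference is the value that the choice of the chromosome does not fix. From 75000001 to 76000000 hotspots covered 14.7 and 20.5 kb in AG and 9.66 and 6.86 kb in GG, a scaled log2 difference of 1.36, which was 1.00 after centring (SE 0.27, limma adjusted p = 0.117). From 57000001 to 58000000, the sparsest window, the scaled difference was 1.76 and the centred one 1.40 (SE 0.33, limma adjusted p = 0.0892). The window from 2000001 to 3000000 was well covered, with 37.9 and 60.1 kb in AG and 29.9 and 30.4 kb in GG, and its scaled difference of 1.00 was 0.64 after centring (SE 0.25, limma adjusted p = 0.218). In all 3 both AG libraries lay above both GG libraries also in unscaled kb, and none passed the centred test. The windows starting at 49000001 and 76000001 followed, with scaled differences of 0.79 and 1.10 and centred ones of 0.43 and 0.74. The last of these was at -0.11 scaled when only the better-scored 50% of every list was kept.

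Toward GG, 3 of the 5 windows ranked first lay between 52 and 56 Mb. From 52000001 to 53000000 hotspots covered 4.99 and 17.9 kb in AG and 22.6 and 34.8 kb in GG, a scaled log2 difference of -1.09, which was -1.46 after centring (SE 0.43, limma adjusted p = 0.131). The next window, from 53000001, had 24.1 and 23.0 kb in AG and 43.2 and 46.7 kb in GG, with a scaled difference of -0.55 and a centred one of -0.91 (SE 0.27, limma adjusted p = 0.134). The one from 55000001 had 1.64 and 5.42 kb in AG and 7.64 and 9.67 kb in GG, with a scaled difference of -0.87 and a centred one of -1.23 (SE 0.33, limma adjusted p = 0.117). AG replicate 1 was the lowest library in the windows from 52000001 and 55000001, and much of their size rested on it. Without it the scaled differences were -0.41 and -0.38 and the centred ones -0.84 and -0.80, while without AG replicate 2 the scaled ones were -1.77 and -1.36. The scaled difference of the window from 53000001 was -0.36 without AG replicate 2. The windows starting at 44000001 and 41000001 differed less, at -0.31 and -0.32 scaled.

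Stretches of 10 Mb gave each library's distribution over the chromosome on a coarser scale. AG embryos had more of chromosome 10's own covered length from 60 to 70 Mb, 12.3 ± 0.641% against 10.6 ± 0.616% in GG (SD, n = 2 libraries each), and from 20 to 30 Mb, 11.5 ± 0.321% against 10.2 ± 1.18%. They had less from 10 to 20 Mb, 13.2 ± 0.962% against 14.8 ± 0.286%. They also had less from 30 to 40 Mb, 12.6 ± 0.221% against 13.5 ± 0.423%, and from 50 to 60 Mb, 6.73 ± 0.488% against 7.63 ± 0.346%. The AG and GG libraries did not overlap in any of these 5 stretches. Nor did they from 70 to 80 Mb (12.4 and 12.9% in AG, 12.0 and 12.1% in GG). From 80 to 90 Mb (15.0 and 14.3% in AG, 15.1 and 15.4% in GG) they were also apart. They overlapped from 0 to 10 Mb, from 40 to 50 Mb and beyond 90 Mb. With 2 libraries per group such separation often arises by chance. A larger share in some stretches also forces smaller shares elsewhere, and no stretch was tested singly. The position below which 50% of the covered length lay was 47971028 and 49240733 in AG and 43837641 and 47206056 in GG, on average 3.08 Mb further along in AG. A two-sided exact permutation test gave p = 0.333, the smallest that 2 libraries against 2 can give, and the difference was 1.40 Mb without GG replicate 1, 4.77 Mb without GG replicate 2 and 0.470 Mb with lists shortened to equal covered length.

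As a log2 ratio, the AG excess of chromosome 10 over the other autosomes pooled was widest in sparse windows, and this was not particular to it. This comparison was added after the data were seen. In windows with under 20 kb covered on average the median log2 difference was 0.50 on chromosome 10 (25 windows) and -0.22 on other autosomes (941 windows). From 20 to 40 kb it was 0.48 on chromosome 10 (22 windows) and -0.14 elsewhere, and from 40 to 60 kb 0.37 (28 windows) and 0.03 elsewhere. At 60 kb or more it was 0.24 on chromosome 10, in only 18 windows, and 0.14 elsewhere. The gap between chromosome 10 and the rest was thus 0.72 in the sparsest band and 0.10 in the densest, the second becoming -0.01 without GG replicate 1 and 0.20 without GG replicate 2. In the other 3 bands chromosome 10 stayed above the rest without any 1 library, by 0.26 to 0.77. In the sparsest band the median was 1.30 on chromosome 19, 0.90 on chromosome 16 and 0.77 on chromosome 20, each above that of chromosome 10, and in the densest it was 0.55 on chromosome 19, 0.22 on chromosome 16 and 0.43 on chromosome 20. Bands use the same windows as the share of the chromosome, so this describes where its log2 ratio stood furthest above the rest and carries no test. Sparse windows hold little covered length, so it does not show where most of the excess in bp lay.

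**Figure D3:**
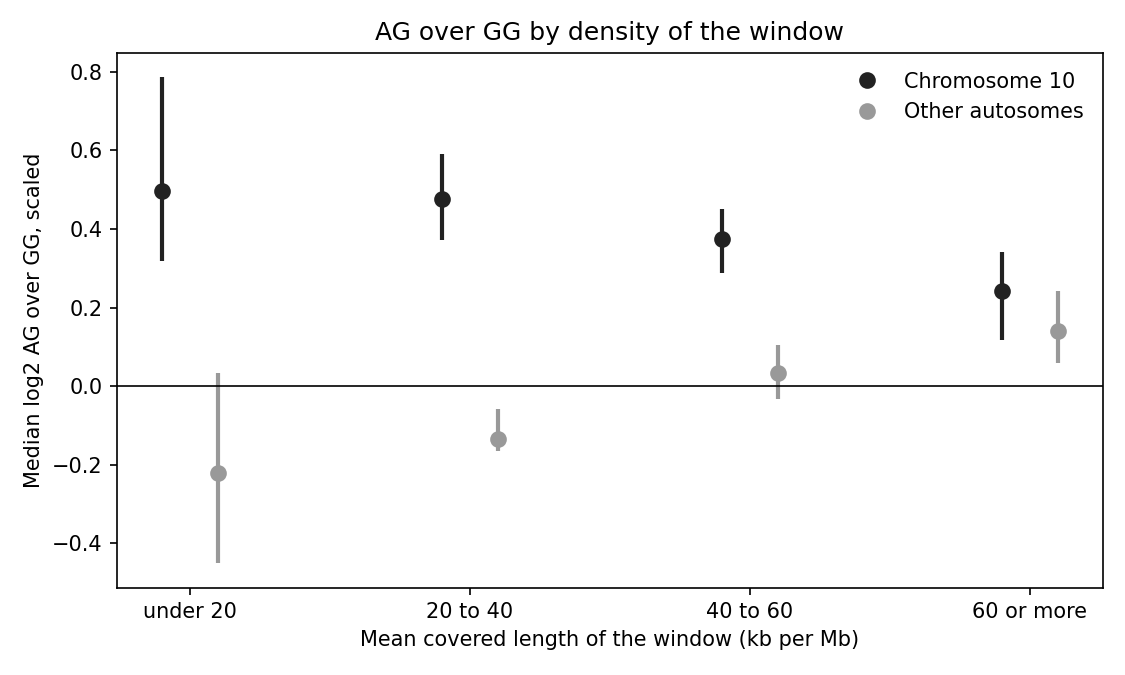
Median scaled log2 ratio of AG over GG for 1 Mb windows of chromosome 10 and of all other autosomes, in 4 bands of mean covered length (kb per Mb). Points are medians with all libraries and lines span the medians with each of the 4 libraries left out. Chromosome 10 lies above the other autosomes by 0.72 in the band under 20 kb and by 0.10 at 60 kb or more.

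Most regions of chromosome 10 were seen in 1 library. Of the 8503 merged regions, 6061 (71.3%) had a hotspot in a single library, 1233 (14.5%) in 2 libraries, 548 (6.44%) in 3 and 661 (7.77%) in all 4, against 75.1, 13.7, 5.36 and 5.83% on the other autosomes. The share in all 4 libraries was higher still on chromosomes 19 (14.5%) and 16 (9.20%), and was 7.49% on chromosome 20. Regions were wider the more libraries they were called in, with medians of 760, 1249, 1815 and 2793 bp. Some of that width comes from merging hotspots with different edges. Regions called in all 4 libraries held 38.3 and 30.9% of the chromosome's covered length in AG and 38.3 and 37.7% in GG. AG replicate 2 stood apart through regions called only there, which numbered 2105 and held 43.4% of its covered length on chromosome 10. This was not particular to chromosome 10. Such regions made up 24.8% of its merged regions and 22.5% of those of the other autosomes.

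**Figure D4:**
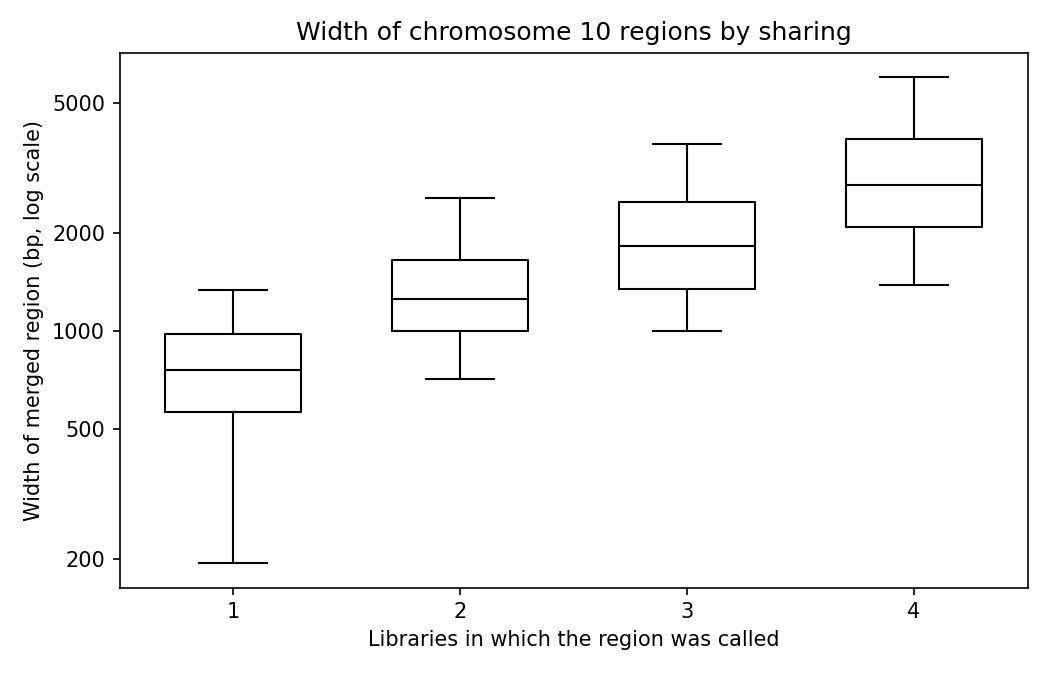
Width of merged regions of chromosome 10 (bp, log axis) by the number of libraries in which they were called. Boxes span the quartiles with the median as a line, whiskers the 5th to 95th percentile, and medians are 760, 1249, 1815 and 2793 bp.

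Regions called in all 4 libraries were covered over a greater length in both GG libraries than in both AG libraries, summing the hotspots of a region where it held several. The mean covered length per such region was 1872 and 1863 bp in AG and 2076 and 2129 bp in GG, and the groups did not overlap. On the other autosomes it was 1861 and 1774 bp in AG and 2246 and 2180 bp in GG. The median score percentile in these regions was 84.7 and 86.5 in AG and 87.0 and 87.6 in GG, against 35.3 and 40.1 in AG and 35.9 and 36.3 in GG for regions called in only 1 library.

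Chromosome 10 lacked much of the GG surplus seen elsewhere in regions of 1 group. Regions in both AG libraries and neither GG library (AG-only) numbered 249, and those in both GG libraries and neither AG library (GG-only) 391. That is 1.57 GG-only regions per AG-only region, rank 18 of 20 autosomes, with lower values on chromosomes 19 (0.984) and 20 (1.28). Chromosome 10 held 5.27% of all AG-only and 3.20% of all GG-only autosomal regions, and 5.02% of those in all 4 libraries. The direction depended on list length: with lists shortened to equal covered length, AG-only regions numbered 284 and GG-only regions 174. Regions called in a single library were split the same way. Chromosome 10 held 4.40 and 4.18% of the autosomal total of AG replicates 1 and 2. For GG replicates 1 and 2 it held 2.72 and 3.44%. The chromosome was chosen on its larger AG share of covered length, which uses the same hotspots. These counts are thus a description and nothing is read from them.

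**Figure D5:**
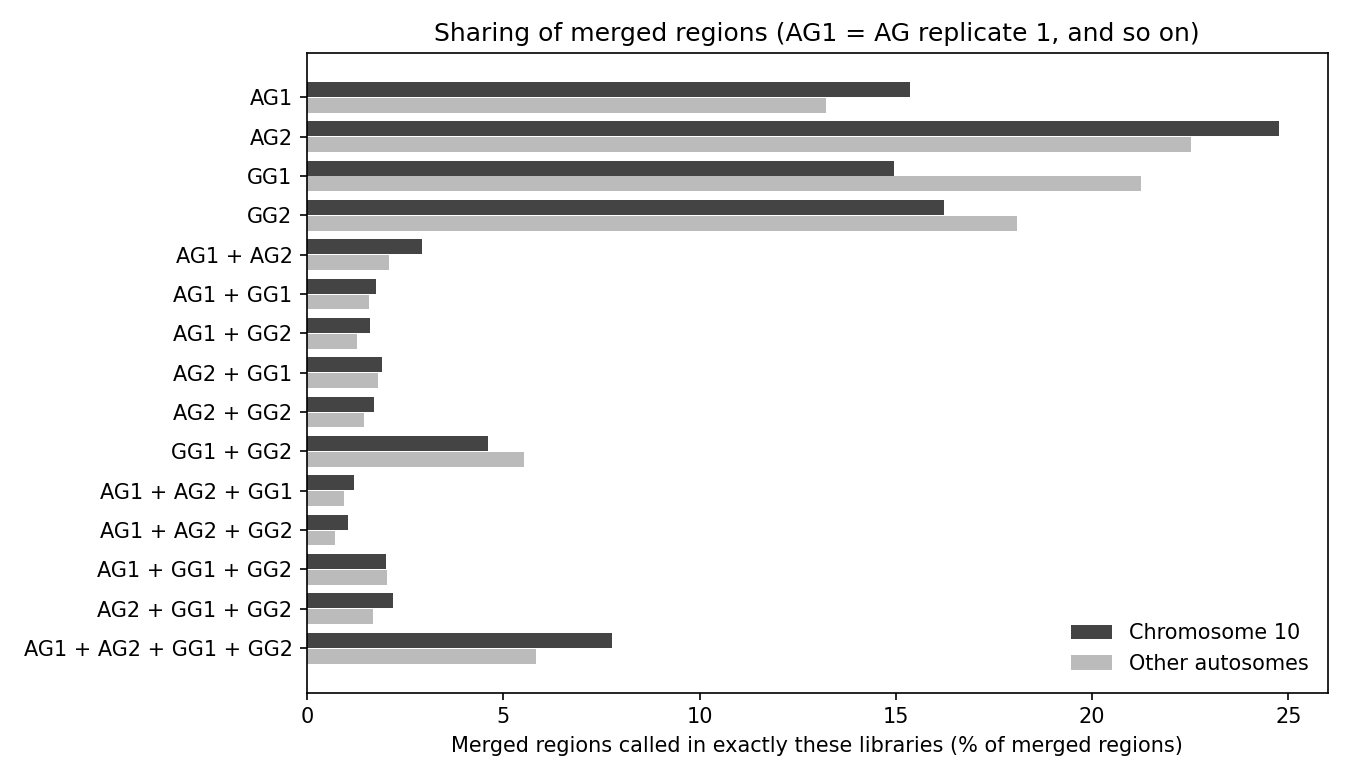
Percentage of merged regions called in exactly the named libraries, for chromosome 10 (dark, 8503 regions) and all other autosomes (light, 214273 regions), 1 pair of bars per combination. On chromosome 10 the bar of AG1 + AG2 (2.93%) is above and that of GG1 + GG2 (4.60%) below the other autosomes (2.09 and 5.52%), and the bar of all 4 libraries (7.77%) is above (5.83%).

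Pairs of libraries shared more of chromosome 10 than of the other autosomes pooled, in every combination. Other autosomes were not compared singly here. The Jaccard index, shared over total covered bp, was 0.187 within AG (0.167 on other autosomes) and 0.287 within GG (0.246). Between groups it was 0.201 and 0.199 for AG replicate 1 with GG replicates 1 and 2, and 0.178 and 0.174 for AG replicate 2 with them. AG replicate 1 thus shared more with either GG library than with AG replicate 2 by this measure, while the GG pair stood above all others. Neither was particular to chromosome 10. On the other autosomes the values were 0.171 and 0.172 for AG replicate 1 with GG replicates 1 and 2, and 0.143 and 0.142 for AG replicate 2 with them.

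Group-only regions lay nearer to shared open chromatin than regions called in a single library. The median distance to the nearest region called in all 4 libraries was 34.1 kb for AG-only regions, 31.8 kb for GG-only regions and 50.1 kb for regions of 1 library. Within 10 kb lay 65 of 249 AG-only regions (26.1%), 99 of 391 GG-only regions (25.3%) and 1038 of 6061 regions of 1 library (17.1%). On other autosomes the medians were longer, at 41.0 kb for AG-only, 59.7 kb for GG-only and 90.3 kb for regions of 1 library. Regions called in all 4 libraries were dense on chromosome 10, at 7.12 per Mb (rank 3 among autosomes). Distances to such regions shorten with their density, and whether those of chromosome 10 were shorter beyond that was not tested. The median position was 49357549 for AG-only regions, with quartiles of 25640574 and 73100931. It was 38377513 for GG-only regions, with quartiles of 19903013 and 68177246. For regions in all 4 libraries it was 50881443, with quartiles of 25015555 and 72436029. Each set was thus spread over much of the chromosome. Regions are not replicates of a condition, so these values carry no test.

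The strongest AG-only region, by the score in its weaker library, was chr10:29985772-29987044, which scored 27.4 and 21.5 in AG replicates 1 and 2 and had no hotspot in either GG library. It was followed by chr10:85227122-85229273 (14.8 and 17.1), chr10:57764915-57766298 (15.8 and 13.1), chr10:80643158-80644377 (12.0 and 11.9) and chr10:4165603-4167127 (15.0 and 11.2). The third of these lies in the sparsest window, the one with the largest scaled log2 difference of the chromosome. Scores this high were uncommon: over the 249 AG-only regions the weaker library's score had a median of 5.24.

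The strongest GG-only region was chr10:43318163-43319806, which scored 31.2 and 14.2 in GG replicates 1 and 2. The second, chr10:53088459-53095211, was wide: hotspots covered 5791 bp of it in GG replicate 1 and 4889 bp in GG replicate 2, with scores of 17.2 and 13.8, and none in AG. It lies in one of the windows that were higher in both GG libraries, from 53000001. The others were chr10:82540800-82543147 (13.4 and 12.4), chr10:37950989-37951964 (14.1 and 10.9) and chr10:30445683-30447916 (11.2 and 10.6). Over the 391 GG-only regions the weaker library's score had a median of 5.03.

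The 2 highest-ranking regions common to all libraries stood at the end of the chromosome. All such common regions were ranked by the mean over libraries of the best score percentile within each list. First was chr10:92838138-92840749, with scores of 135 and 417 in AG and 379 and 328 in GG, and second its neighbour chr10:92831473-92836518, with 215 and 283 in AG and 247 and 279 in GG. Both lie in the last window. The next were chr10:77498998-77502041 (33.3 and 211 in AG, 200.2 and 176 in GG), chr10:14410312-14413434 (39.3 and 72.6 in AG, 102 and 80.0 in GG) and chr10:29459508-29462672 (38.8 and 25.5 in AG, 27.1 and 26.6 in GG). AG replicate 1 had the lowest score of the 4 libraries in the first 4, and scores of different lists have no common scale.

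The widest regions common to all libraries were mostly clusters of hotspots, whose best scores stood between percentiles 72.3 and 98.8 of their lists. The widest, chr10:12585049-12596125, spans 11077 bp, of which 5327 and 5762 bp were covered in AG and 9694 and 7405 bp in GG. Next was chr10:30697101-30707582 (6802 and 6213 bp in AG, 8518 and 8124 bp in GG). The third, chr10:81289960-81300196, had 7053 and 4972 bp in AG and 4549 and 5088 bp in GG, so the groups overlapped. In chr10:84881362-84891507 hotspots covered 5563 and 6279 bp in AG and 7727 and 9677 bp in GG, and the value of GG replicate 2 was 1 unbroken hotspot. In chr10:80288159-80298103 they covered 6103 and 5978 bp in AG and 5317 and 9527 bp in GG, so the GG values lay on either side of the AG values.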

How the data were processed

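DNase-seq was measured in 4 libraries, 2 AG and 2 GG, grouped by their titles. The authors deposited 1 hotspot list per library, not pooled, with positions in bp and a score per hotspot of unstated scale, and no caller is named. The names of the lists give a false discovery rate of 0.01. The submitters' processing notes name rheMac8 as build, and as tools Trim Galore, SAMtools, Bowtie2 and deepTools 3.3.1, without roles. The score was used within a list, except that named regions were ranked over libraries. No list holds overlapping hotspots, and depth is unknown. Lists were merged where hotspots overlapped or touched, and 1 bp of overlap counted as present.

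Each 1 Mb window whose libraries averaged 2000 or more covered bp was fitted genome-wide with limma 3.58.1 (lmFit, eBayes) in R 4.3.3, AG minus GG, with Benjamini-Hochberg adjustment over all windows at 0.05. Single values had exact permutation tests over libraries. Other work used Python 3.11.15, numpy 2.4.6, pandas 2.3.3 and matplotlib 3.10.9, and the region and window steps were tested on simulated data. Named were 5 regions or windows per kind: AG-only and GG-only by the weaker library's score, shared by percentile and by width, windows by p in each direction and by coverage, and empty stretches. The chromosome, tests and alternatives were chosen with earlier results of these data known. Sequences were not used, since no genome of this build was used here.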

Additional observations from a re-analysis of the deposited data

How the results depend on the processing

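The chromosome's AG minus GG share, and its excess over other autosomes in width, score percentile and hotspots found again, kept their direction under all alternatives run. With a library left out, hotspots per Mb differed by -3.13 to 5.86 (10.4 with lists of equal covered length), AG-only regions numbered 349 to 2392 and GG-only regions 564 to 1828, since a group of 1 library needs 1 call, and the Jaccard excess within groups (0.0491 with all) was -0.00197 to 0.111. In the higher-scoring 50% of each list GG-only regions numbered 229 and the Jaccard excess was 0.0644; at equal covered length GG-only regions numbered 174. Requiring 50% of a region covered left 216 regions in all 4 libraries, from 661. limma called 3 windows of chromosome 10 with an offset of 10000 bp (5.07% of all windows) and 8 with a variance trend (8.13%), from 0. For centred windows, from 0, it called 2 with the offset (6.71% of all windows) and 2 with the trend (6.41%), which is 2.15% of those of chromosome 10, and 0 to 2 with a library left out, where the lone library of a group is assumed to vary like the other group. Median scaling moved the median of all windows to 0.08, from -0.04, and that of chromosome 10 to 0.49. Differences of named windows changed sign at 76000001 (-0.11 in the higher-scoring 50%, -0.40 when centred too), 44000001 (0.11 there, 0.31 at equal covered length) and 41000001 (0.047 by number of hotspots); the cause was not tested.

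Replicate numbers are shared between groups by label only, and differences between replicates 1 and 2 of AG and of GG correlated at -0.0842 over 2682 windows. With a replicate block limma called 0 windows of chromosome 10, and 3 of its 93 (3.23%) after centring, against 7.05% of all windows.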
